A study of Mus musculus with 6 samples.

Results

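The mRNA levels of 10 genes of the transforming growth factor-β (TGF-β) pathway were compared between WT and Nfkb2-/- bone marrow-derived dendritic cells (BMDCs). The genes were chosen by name for their place in the pathway. No measured value enters the rule, but the choice was made with earlier results of these data known. They are the ligands Tgfb1, Tgfb2 and Tgfb3, the receptors Tgfbr1 and Tgfbr2, the receptor SMADs Smad2 and Smad3, the inhibitors Smad7 and Skil, and Tgfbi, a gene known to be induced by TGF-β. They make up 10 of the 56748 Ensembl genes in the count files, and all 10 reached the minimum of 50 counts over the 6 libraries that left 21849 named genes for testing. The study asked how noncanonical NF-κB signaling, in which the p100 precursor encoded by Nfkb2 is processed to p52, shapes the transcriptome of dendritic cells. Marrow from WT C57BL/6 mice and from mice lacking Nfkb2 in every cell was cultured for 9 days, at first for 5 days with 20 ng/mL GM-CSF alone and then for 4 days with 10 ng/mL IL-4 added. Polyadenylated RNA of the unstimulated cells was sequenced in 3 libraries per genotype. Age and sex of the mice were not given in the sources used here, and the loss of Nfkb2 was not restricted to dendritic cells, so that their progenitors and any other cells of the culture lacked it too.

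TGF-β is secreted in a latent form and is released by integrins and other activators. It then binds the type II receptor, which recruits and phosphorylates the type I receptor. The active receptor phosphorylates Smad2 and Smad3, which enter the nucleus with Smad4 and regulate target genes, whereas Smad7 blocks the receptor and Skil (SnoN) represses SMAD-driven transcription. Dendritic cells both produce and respond to TGF-β, which is known for its part in regulatory T cell differentiation and in immune tolerance.

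The libraries held between 29863927 and 55623068 counts. Nfkb2 itself measured 215, 154 and 355 CPM (counts scaled to the size of each library, with TMM factors) in WT replicates 1, 2 and 3 and 44.8, 32.3 and 32.6 CPM in Nfkb2-/- replicates 1, 2 and 3, so that its log2 fold change was -2.72 (SE 0.33) with an adjusted p of 0.0307 in edgeR's quasi-likelihood test. All 12 markers of dendritic cells were detected, led by Cd74, and their summed level was 6568 to 12003 CPM in WT and 8722 to 9823 CPM in Nfkb2-/- libraries. Within this list Itgax (CD11c), named after its values were seen, rose from 123 to 277 CPM in WT to 716 to 769 CPM in Nfkb2-/- libraries (log2 fold change 1.99, adjusted p = 0.0414 from edgeR). Itgax was the only marker of the 12 called by edgeR. Of the 12, 7 were higher and 5 lower, with a median log2 fold change of 0.13. Zbtb46 fell without overlap (log2 fold change -0.54, adjusted p = 0.192 from edgeR). Ccr7 fell with overlap (log2 fold change -0.97, adjusted p = 0.235 from edgeR). All 10 macrophage markers were detected as well, led by Mrc1, at a summed 188 to 1255 CPM in WT and 723 to 931 CPM in Nfkb2-/- libraries. The other cell type lists summed to less. Granulocyte markers (led by S100a8) reached at most 227 CPM, stromal markers (Col1a2) at most 57.8 CPM, and mast cell and basophil markers (Kit) at most 57.7 CPM. In the last list Cpa3, likewise named after its values were seen, fell from 6.31 to 10.8 CPM in WT to 1.86 to 2.49 CPM in Nfkb2-/- libraries (log2 fold change -1.84, adjusted p = 0.0413 from edgeR). Of the 6 genes of this list that were tested, 4 were lower and 2, Kit and Gata2, were higher. Gata2 rose without overlap, from 0.69 to 1.91 CPM in WT to 3.22 to 4.05 CPM in Nfkb2-/- libraries (log2 fold change 1.47, adjusted p = 0.119 from edgeR). The edgeR calls of Itgax and Cpa3 held on omission of WT replicate 2 or 3. They were lost on omission of WT replicate 1 or any Nfkb2-/- replicate, with adjusted p-values of up to 0.202 for Itgax and 0.201 for Cpa3. Their part in the results on the pathway genes was not tested. Markers of platelets (Ppbp), T cells (Cd247), erythroid cells (Alas2) and B cells (Ebf1) stayed at or under 12.03, 6.47, 5.55 and 5.52 CPM, and no marker was at 0 in all 6 libraries. In these bulk libraries, fewer cells of a type and less RNA per cell cannot be told apart. A pair of libraries stood apart. In WT replicate 3 the macrophage markers were 6.19-fold below the mean of WT replicates 1 and 2, with all 10 markers at their lowest of the 6 libraries. In Nfkb2-/- replicate 1, 47952 genes were detected, compared with 27692 to 33841 per library elsewhere, and of the genes with a mean under 2 CPM 57.1% had their highest value there.

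The 250 bases before the annotated start are shown for the member ligand with the clearest separation of genotypes (Tgfb1), for the receptor and the target gene that shared a low value in WT replicate 3 (Tgfbr2 and Tgfbi), and for a co-receptor that fell in Nfkb2-/- BMDCs (Eng). They were taken from RefSeq on GRCm38.p6, and windows were searched for 6 of the 10 members. Tgfb3, Smad2, Smad7 and Skil were not among these, so that the motif counts below do not cover them. The starts are those of RefSeq and differ from the GENCODE M21 gene bounds given below for Tgfbr2 and Tgfbi, so that the window of Tgfbi reaches into the gene as GENCODE annotates it. Capitals mark CAGAC, the core of the DNA element bound by SMAD proteins, or its reverse complement GTCTG. The windows are chr7:25686752-25687001 on the plus strand for Tgfb1, chr9:116175364-116175613 on the minus strand for Tgfbr2, chr13:56609336-56609585 on the plus strand for Tgfbi and chr2:32646345-32646594 on the plus strand for Eng, each written 5′ to 3′ in the direction of transcription.
Tgfb1: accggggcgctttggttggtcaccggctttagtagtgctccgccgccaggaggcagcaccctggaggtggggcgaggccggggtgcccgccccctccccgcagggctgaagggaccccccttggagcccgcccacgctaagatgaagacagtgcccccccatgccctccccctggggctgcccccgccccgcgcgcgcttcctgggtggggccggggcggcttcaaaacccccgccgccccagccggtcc
Tgfbr2: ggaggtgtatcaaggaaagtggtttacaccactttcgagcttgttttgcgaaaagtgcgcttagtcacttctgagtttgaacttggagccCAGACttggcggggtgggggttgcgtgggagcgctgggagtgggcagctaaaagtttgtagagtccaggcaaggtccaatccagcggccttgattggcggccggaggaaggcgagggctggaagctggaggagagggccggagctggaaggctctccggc
Tgfbi: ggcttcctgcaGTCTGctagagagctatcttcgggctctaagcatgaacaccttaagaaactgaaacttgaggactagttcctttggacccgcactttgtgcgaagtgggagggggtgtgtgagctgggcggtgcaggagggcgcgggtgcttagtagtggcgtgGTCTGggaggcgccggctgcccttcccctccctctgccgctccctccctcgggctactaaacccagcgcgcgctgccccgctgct
Eng: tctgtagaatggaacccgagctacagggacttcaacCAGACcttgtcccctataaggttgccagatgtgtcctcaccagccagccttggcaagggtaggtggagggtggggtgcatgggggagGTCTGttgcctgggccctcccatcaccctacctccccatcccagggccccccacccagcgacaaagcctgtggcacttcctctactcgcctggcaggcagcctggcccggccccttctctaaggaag
The window of Tgfb1 held no CAGAC on either strand. Tgfbr2 held 1, 160 to 156 bases before the start, and Tgfbi held 2, of which the nearer lay 85 to 81 bases before the RefSeq start. Eng also held 2, at 214 to 210 and at 127 to 123 bases. The windows of Zfyve9 and Inhba, the other pathway genes called by edgeR below, held no CAGAC on either strand and are not shown. Of the 6 members with a window, 4 held the letters at least once, the others being Tgfb2 and Tgfbr1. For Tgfbr1 the window next to the GENCODE gene start (chr4:47352972-47353221) held none. Another RefSeq window inside the gene (chr4:47385966-47386215) held 1. The same letters stood in 42.2% of 32851 RefSeq windows of this length, a share by window and not by gene. The NF-κB motif stood in 3.90% of these windows and in none of the 6 members. A match of letters describes the window and does not show that a factor binds there.

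In the comparison of genotypes, none of the 10 members was called differentially expressed by edgeR, for which both a fold change above 1.2 and an adjusted p below 0.05 were required. Over all genes tested this rule called 1.14%, with 0.453% higher and 0.682% lower in Nfkb2-/- BMDCs. At an unadjusted p-value under 0.05, 3 members passed, Tgfb1 with a higher level in Nfkb2-/- BMDCs and Smad3 and Skil with lower ones, beside 17.1% of all genes. DESeq2 called 1 member, Skil, and 11.3% of the genes to which it gave an adjusted p-value. With limma voom none of the 10 was called, beside 488 of all 21849 genes tested. The values of the genotypes did not overlap for 2 members, Tgfb1 and Skil, and for 24.7% of all genes. The members' log2 fold changes ran from -0.77 to 0.57 with a median of -0.03, beside a median of 0.08 over all genes tested, and 5 lay on each side of 0.

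**Figure D1:**
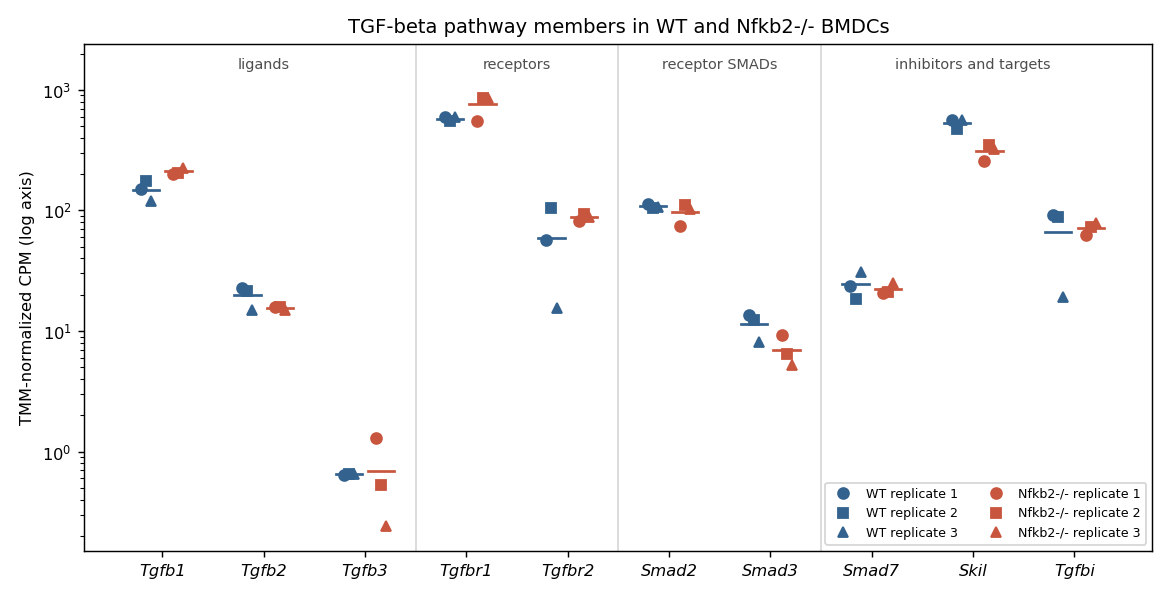
Level of each member (TMM-normalized CPM, log axis) in the 3 WT libraries (blue) and the 3 Nfkb2-/- libraries (red), with replicate numbers as symbols and the group mean as a line. The genotypes separate for Tgfb1 and Skil, while Tgfbr2 and Tgfbi in WT replicate 3 sit at 15.5 and 19.2 CPM, far below the other libraries.

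Among the ligands, Tgfb1 (ENSMUSG00000002603, chr7:25687002-25705077, plus strand of GRCm38), which encodes the isoform best known in immune cells, measured 151, 175 and 119 CPM in WT and 201, 206 and 226 CPM in Nfkb2-/- libraries. Each Nfkb2-/- value lay above the highest WT value. The log2 fold change was 0.51 (95% interval 0.09 to 0.92), a 1.42-fold higher mean fitted level, which edgeR gave an unadjusted p of 0.0232 and an adjusted p of 0.207. Without WT replicate 3, the lowest library, the log2 fold change was 0.37. The exact permutation test of 3 against 3 libraries gave p = 0.1, the smallest p-value that this design allows.

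Tgfb2 (ENSMUSG00000039239, chromosome 1), another isoform that binds poorly to the type II receptor without a co-receptor, measured 22.7, 21.4 and 15.04 CPM in WT and 15.8, 15.8 and 14.8 CPM in Nfkb2-/- libraries. WT replicate 3 lay within the Nfkb2-/- range and the other WT libraries above it. A log2 fold change of -0.35 (95% interval -0.80 to 0.10, adjusted p = 0.414 from edgeR) did not exceed the spread between replicates. Its exons share 124 of 5791 bases with an annotated gene on the opposite strand, and whether reads were counted by strand was not given in the sources used here.

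Tgfb3 (ENSMUSG00000021253, chromosome 12) was close to the limit of detection, with 27, 21 and 19 counts in WT and 44, 16 and 13 counts in Nfkb2-/- libraries. These counts correspond to 0.64, 0.65 and 0.65 CPM and to 1.30, 0.53 and 0.24 CPM. The WT values were nearly equal and lay inside the range of the Nfkb2-/- values, which was set by replicate 1 at its upper end. The 95% interval of the log2 fold change ran from -1.54 to 1.71, so that a difference within these bounds was not detectable over the spread of these libraries, and the estimate moved from 0.09 to -0.79 without Nfkb2-/- replicate 1.

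The balance of the ligands was read from levels per kilobase of exon. Tgfb1 exceeded Tgfb2 by 7.66-, 9.38- and 9.09-fold in WT and by 14.6-, 14.95- and 17.5-fold in Nfkb2-/- libraries. The ratio was higher in each Nfkb2-/- library than in any WT library. It joins the higher Tgfb1 level with the lower Tgfb2 level and is no separate measurement.

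Of the receptors, Tgfbr1 (ENSMUSG00000007613, chromosome 4), the type I receptor kinase that phosphorylates the receptor SMADs, measured 593, 551 and 591 CPM in WT and 554, 863 and 863 CPM in Nfkb2-/- libraries. Replicates 2 and 3 of the Nfkb2-/- group lay above all WT libraries, and replicate 1 lay within the WT range. This gave a log2 fold change of 0.39 (95% interval -0.10 to 0.89, adjusted p = 0.399 from edgeR). Omission of single libraries moved it between 0.27 and 0.57 and never brought the adjusted p below 0.112.

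Tgfbr2 (ENSMUSG00000032440, chr9:116084293-116175360, minus strand), the type II receptor that binds the ligand, measured 56.6, 105 and 15.5 CPM in WT and 82.3, 93.9 and 87.5 CPM in Nfkb2-/- libraries. The Nfkb2-/- libraries lay close together, whereas WT libraries spanned a range that enclosed them. Its log2 fold change was 0.57 (SE 0.57, 95% interval -0.76 to 1.90, adjusted p = 0.645 from edgeR). Omitting WT replicate 3 gave 0.12 and omitting WT replicate 2 gave 1.28, so that single WT libraries decided its size.

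Among the receptor SMADs, Smad2 (ENSMUSG00000024563) measured 113, 104 and 108 CPM in WT and 74.7, 111 and 102 CPM in Nfkb2-/- libraries. Apart from Nfkb2-/- replicate 1 all libraries lay between 102 and 113 CPM. Its log2 fold change was -0.17 (95% interval -0.59 to 0.25, adjusted p = 0.662 from edgeR), and it was -0.03 without Nfkb2-/- replicate 1.

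Smad3 (ENSMUSG00000032402, chr9:63646767-63757994, minus strand), which unlike the main form of Smad2 binds DNA directly, measured 13.5, 12.4 and 8.16 CPM in WT and 9.31, 6.46 and 5.18 CPM in Nfkb2-/- libraries. Replicates 2 and 3 of the Nfkb2-/- group lay below all WT libraries, and the genotypes overlapped through WT replicate 3 and Nfkb2-/- replicate 1. This gave a log2 fold change of -0.70 (95% interval -1.38 to -0.03), with an unadjusted p of 0.0434 and an adjusted p of 0.273 from edgeR. The exact permutation test gave p = 0.2. Leaving out each library in turn gave between -0.98 and -0.52. Per kilobase of exon, Smad2 exceeded Smad3 by 5.24-, 5.32- and 8.33-fold in WT and by 5.07-, 10.9- and 12.4-fold in Nfkb2-/- libraries, and these ranges overlapped.

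Among the inhibitors, Skil (ENSMUSG00000027660, chr3:31095058-31122577, plus strand), the corepressor SnoN and itself a gene known to be induced by TGF-β, showed the clearest difference of the 10 members. It measured 566, 475 and 559 CPM in WT and 259, 351 and 326 CPM in Nfkb2-/- libraries. Even the lowest WT library lay above the highest Nfkb2-/- library. The log2 fold change was -0.77 (SE 0.18, 95% interval -1.19 to -0.36), or a 1.71-fold lower level, with an unadjusted p of 0.00286. The adjusted p was 0.0916 by edgeR, 0.00192 by DESeq2 and 0.0618 by limma voom, and in edgeR without TMM scaling it was 0.0498. Omission of single libraries left it between -0.90 and -0.67, with an adjusted p between 0.0532 (without WT replicate 2) and 0.328 (without WT replicate 1).

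Smad7 (ENSMUSG00000025880), the inhibitory SMAD that blocks the type I receptor and takes part in its degradation, measured 23.8, 18.3 and 31.1 CPM in WT and 20.8, 20.9 and 24.9 CPM in Nfkb2-/- libraries. The Nfkb2-/- values lay inside the WT range. Its estimated change was -0.14 on the log2 scale (95% interval -0.65 to 0.38, adjusted p = 0.786 from edgeR), and it turned to 0.08 without WT replicate 3, where Smad7 was highest. Smad7 thus overlapped between the genotypes and Skil did not. The difference between these effects was not tested, and their 95% intervals overlapped.

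Tgfbi (ENSMUSG00000035493, chr13:56609523-56639562, plus strand), a secreted matrix protein that TGF-β induces in many cells, measured 91.8, 88.5 and 19.2 CPM in WT and 62.3, 72.3 and 78.7 CPM in Nfkb2-/- libraries. WT replicates 1 and 2 lay above all Nfkb2-/- libraries, and WT replicate 3 lay below them. Its log2 fold change of 0.10 (95% interval -1.10 to 1.29, adjusted p = 0.943 from edgeR) turned to -0.34 without WT replicate 3.

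**Figure D2:**
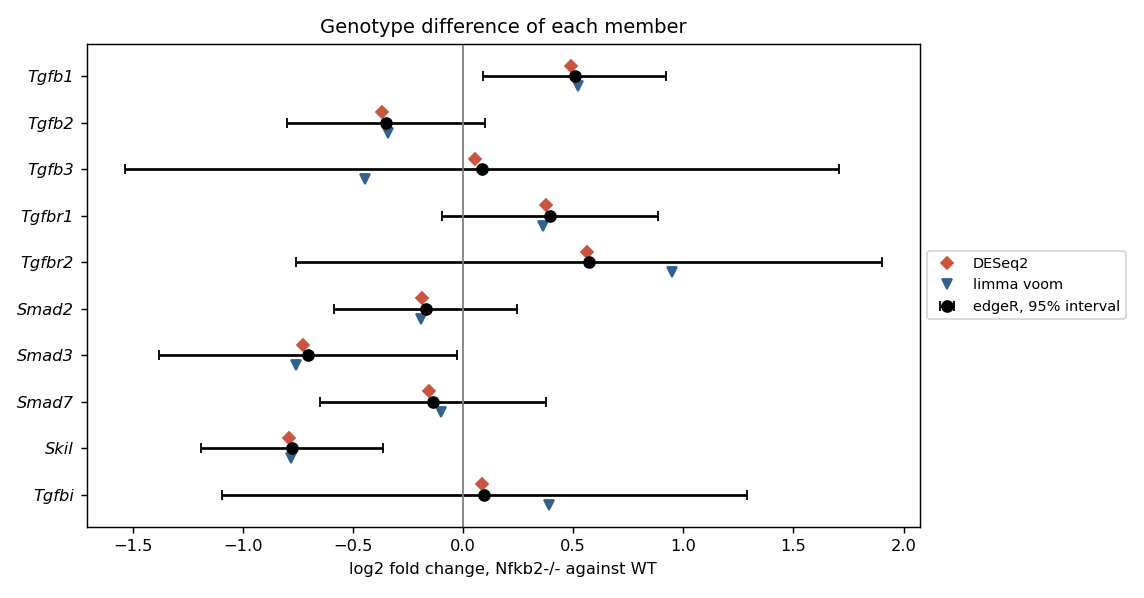
Log2 fold change of each member between Nfkb2-/- and WT BMDCs, with edgeR's estimate and its 95% interval in black, DESeq2 in red and limma voom in blue. The intervals of Tgfb1, Smad3 and Skil do not reach 0 before adjustment, and those of Tgfb3, Tgfbr2 and Tgfbi are the widest.

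Tgfbr2 and Tgfbi shared the low value in WT replicate 3, at 5.22- and 4.69-fold below the mean of WT replicates 1 and 2. The other members differed less there, with Smad3 1.59-fold, Tgfb2 1.47-fold and Tgfb1 1.37-fold lower and with Smad7 1.48-fold higher. Over all genes at 2 CPM or more, 25.96% had their lowest value in this library. The macrophage marker sum was 1077, 1255 and 188 CPM in WT and 723, 780 and 931 CPM in Nfkb2-/- libraries. It was thus lowest in the same library as both genes. The stromal sum was 57.8, 12.4 and 1.55 CPM in WT and 26.5, 14.9 and 5.29 CPM in Nfkb2-/- libraries, and the dendritic cell sum was highest in WT replicate 3, at 12003 CPM. The part of these cell types in the levels of Tgfbr2 and Tgfbi was not tested. Per kilobase, Tgfbr1 exceeded Tgfbr2 by 13.1-, 6.55- and 47.8-fold in WT and by 8.43-, 11.5- and 12.4-fold in Nfkb2-/- libraries, and the highest ratio belonged again to WT replicate 3.

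**Figure D3:**
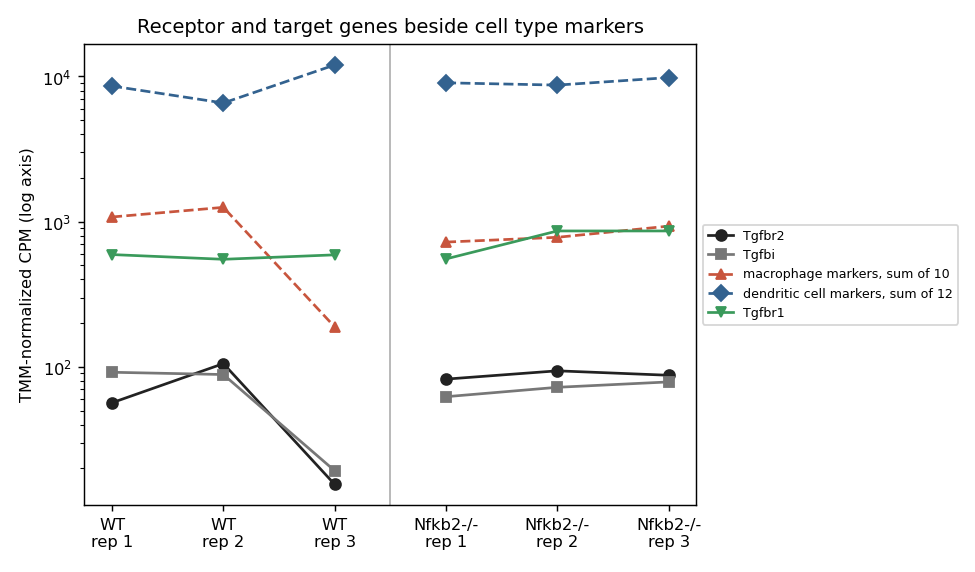
TMM-normalized CPM (log axis) of Tgfbr1, Tgfbr2 and Tgfbi in each library, with the summed CPM of 10 macrophage and 12 dendritic cell markers. Tgfbr2, Tgfbi and the macrophage sum drop in WT replicate 3, whereas Tgfbr1 stays at 591 CPM and the dendritic cell sum is at its highest.

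Levels were compared between members only after division by the length of their exons. In WT BMDCs the order of mean CPM per kilobase was Tgfbr1 (88.5), Skil (55.0), Tgfb1 (29.4), Tgfbi (17.6), Smad2 (12.3), Tgfbr2 (7.22), Smad7 (5.40), Tgfb2 (3.40), Smad3 (2.05) and Tgfb3 (0.19). Neighbours from Tgfb1 down to Smad7 overlapped in their ranges over the libraries, and the other neighbours did not. In Nfkb2-/- BMDCs the order differed in a single exchange, with Tgfb1 at 41.8 CPM per kilobase above Skil at 32.2, and the ranges of these genes did not overlap in either genotype. The only neighbours whose ranges overlapped there were Smad2 (10.9) and Tgfbr2 (10.7). The receptor Tgfbr1 was thus the most abundant member in both genotypes, and Tgfb1 the most abundant ligand. With the longest transcript in place of all exons, the ranks were the same.

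**Figure D4:**
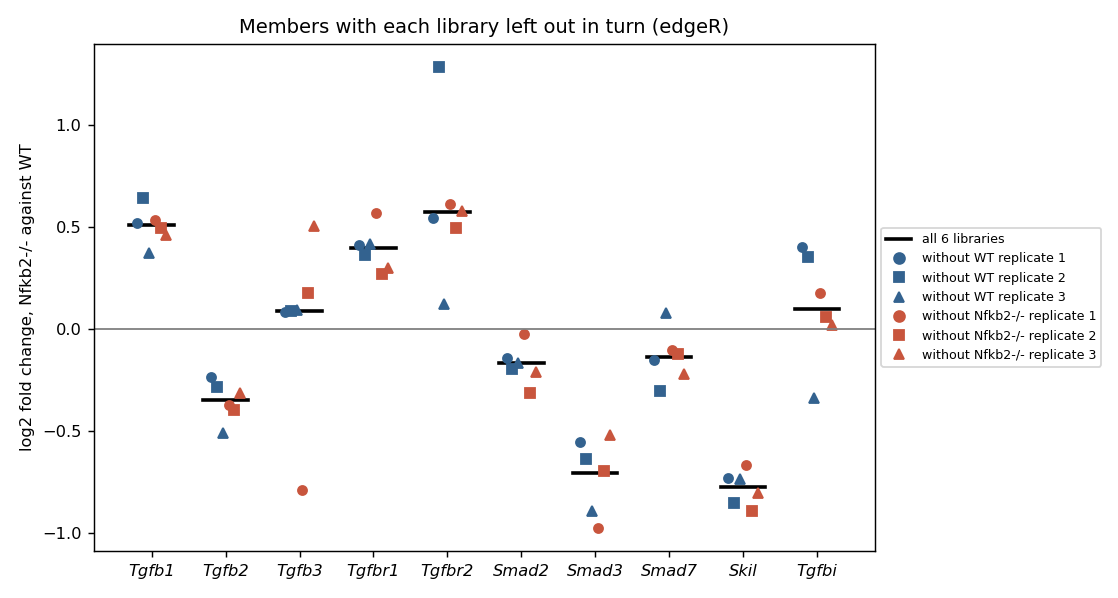
Log2 fold change of each member by edgeR, as a black line for all 6 libraries and as symbols for fits that omit 1 library. Skil stays between -0.90 and -0.67 and Tgfb1 between 0.37 and 0.64, while Tgfb3, Smad7 and Tgfbi cross 0.

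Other genes of the pathway were described from 7 lists by role, with 71 genes of which 67 were tested. By edgeR 3 were called, 1 higher and 2 lower in Nfkb2-/- BMDCs, beside 1.14% of all genes tested. At an unadjusted p-value under 0.05, 20 passed (7 higher and 13 lower), beside 17.1% of all genes. DESeq2 called 12, beside 11.3% of the genes with an adjusted p-value. With limma voom 5 were called, beside 488 of all 21849 genes tested. The genotypes did not overlap for 25 of the 67, or 37.3%, beside 24.7% of all genes, and 17 of these were lower in Nfkb2-/- BMDCs. The median log2 fold change was -0.09. Of the 16 genes with a mean under 2 CPM, 14 were highest in Nfkb2-/- replicate 1, the library with the most detected genes, beside 57.1% of all genes under 2 CPM.

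Eng (endoglin), a co-receptor for TGF-β family ligands, fell in Nfkb2-/- BMDCs. It measured 25.7, 15.1 and 19.5 CPM in WT and 8.24, 5.504 and 4.77 CPM in Nfkb2-/- libraries, a 3.26-fold lower level without overlap. On the log2 scale the change was -1.70 (SE 0.29, adjusted p = 0.0478 from edgeR). The call held without WT replicate 2 and was lost when any other library was left out, with adjusted p-values of 0.0631 (without WT replicate 3) to 0.217 (without Nfkb2-/- replicate 2), and without TMM scaling it was 0.0792. Eng was the single gene called by edgeR among 11 co-receptors and related receptors, whose median log2 fold change was -0.18. DESeq2 called Acvr1c as well, a type I receptor also known as ALK7, which measured 9.30, 2.98 and 15.6 CPM in WT and 1.62, 1.38 and 0.77 CPM in Nfkb2-/- libraries (log2 fold change -2.89, adjusted p = 0.0759 from edgeR). Bmpr2, a BMP type II receptor and the most abundant of this list in CPM, measured 750, 555 and 671 CPM in WT and 364, 520 and 550 CPM in Nfkb2-/- libraries (log2 fold change -0.46, adjusted p = 0.335 from edgeR).

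Zfyve9 (SARA), an anchor protein that presents Smad2 and Smad3 to the receptor, also fell. Its values were 30.0, 17.2 and 37.3 CPM in WT and 7.27, 5.67 and 6.32 CPM in Nfkb2-/- libraries. No Nfkb2-/- library reached the lowest WT value. On the log2 scale the change was -2.13 (SE 0.30, adjusted p = 0.0359 from edgeR), or a 4.39-fold lower level. Its exons share 706 of 6459 bases with a gene on the opposite strand, 3110021N24Rik. Zfyve9 was the single gene called by edgeR among 9 transducers and SMAD partners, of which 8 were tested and whose median log2 fold change was -0.12. Crebbp, a coactivator with histone acetyltransferase activity and the most abundant in CPM, measured 546, 458 and 642 CPM in WT and 422, 404 and 427 CPM in Nfkb2-/- libraries (log2 fold change -0.39, adjusted p = 0.307 from edgeR).

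Inhba, which encodes the βA subunit of activin A, a ligand that also signals through Smad2 and Smad3, rose in Nfkb2-/- BMDCs. It measured 18.3, 25.6 and 9.64 CPM in WT and 78.9, 116 and 74.0 CPM in Nfkb2-/- libraries. The lowest Nfkb2-/- value was well above the highest WT value. On the log2 scale the change was 2.33 (SE 0.37, adjusted p = 0.0420 from edgeR), or a 5.02-fold higher level. The calls of Inhba and Zfyve9 were kept without WT replicate 2 or WT replicate 3. They were lost without WT replicate 1 or any Nfkb2-/- replicate, with adjusted p-values of 0.0919 to 0.202 for Inhba and of 0.0900 to 0.196 for Zfyve9. Among the 12 activin, BMP and GDF ligands and their regulators, 9 were tested and Inhba was the only one called by edgeR. DESeq2 called Gdf11 and Fst as well. Gdf11, a ligand of the activin receptors, measured 12.7, 8.55 and 18.5 CPM in WT and 5.41, 4.65 and 3.89 CPM in Nfkb2-/- libraries (log2 fold change -1.51, adjusted p = 0.0688 from edgeR). Fst, the activin antagonist follistatin, measured 0.62, 0.80 and 0.41 CPM in WT and 2.25, 1.91 and 3.35 CPM in Nfkb2-/- libraries (log2 fold change 2.03, adjusted p = 0.0650 from edgeR). The genotypes did not overlap for either gene. The median of this list was 1.54, but 7 of the 9 had a mean under 2 CPM and 6 of those 7 were highest in Nfkb2-/- replicate 1, with Fst as the exception.

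**Figure D5:**
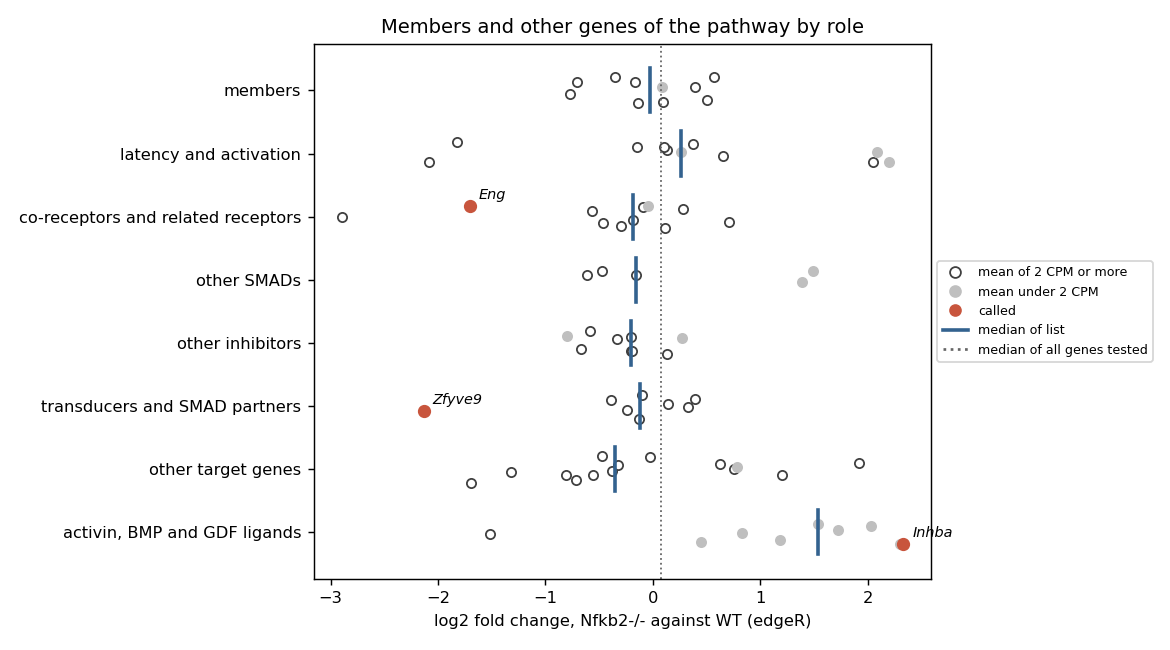
Log2 fold change (edgeR, horizontal axis) of the members and of the tested genes of 7 other lists of the pathway, one point per gene, spread vertically for legibility. Red points are the called genes Eng, Zfyve9 and Inhba, grey points have a mean under 2 CPM, blue bars are list medians, and the dotted line is the median of all genes tested, 0.08.

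None of the 11 genes of latency and activation was called by edgeR, and 4 had an unadjusted p-value under 0.05 (17.1% of all genes). The median log2 fold change of the 11 was 0.26. In this list 3 genes had a mean under 2 CPM, all highest in Nfkb2-/- replicate 1, and the 8 at 2 CPM or more had a median of 0.12. DESeq2 called Lrrc32 and Thbs1 among the 11 genes. Thbs1, a matrix protein that can activate latent TGF-β, was the most abundant in CPM. It measured 1330, 962 and 504 CPM in WT and 156, 222 and 282 CPM in Nfkb2-/- libraries, without overlap. Its log2 fold change of -2.08 (SE 0.39) had an adjusted p of 0.0568 by edgeR and 0.0377 by limma voom.

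The 5 other SMADs had a median log2 fold change of -0.16, and none was called by edgeR. Of these, 2 had a mean under 2 CPM and were highest in Nfkb2-/- replicate 1. The 3 at 2 CPM or more were all lower in Nfkb2-/- BMDCs, with a median of -0.47. Smad4, the common partner of the receptor SMADs and the most abundant of this list in CPM, measured 164, 149 and 191 CPM in WT and 90.5, 120 and 120 CPM in Nfkb2-/- libraries. The groups did not overlap. The log2 fold change was -0.61 (SE 0.18), and its adjusted p was 0.145 by edgeR and 0.0326 by DESeq2.

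Of the 9 other inhibitors none was called by edgeR, 2 had an unadjusted p-value under 0.05 (17.1% of all genes), and DESeq2 called Tgif1. For 5 of the 9 the genotypes did not overlap, each time with lower levels in Nfkb2-/- BMDCs, beside 24.7% of all genes in either direction. The median of the 9 was -0.21, and 7 of the 9 were highest in WT replicate 3. Smurf1, a ubiquitin ligase that acts on receptors and SMADs, was the most abundant in CPM, with 173, 147 and 258 CPM in WT and 131, 129 and 125 CPM in Nfkb2-/- libraries (log2 fold change -0.59, adjusted p = 0.235 from edgeR). Its log2 fold change was -0.32 without WT replicate 3.

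Of the 14 other target genes none was called by edgeR, 4 had an unadjusted p-value under 0.05 (17.1% of all genes), and DESeq2 called Itgae, the CD103 integrin subunit, and Fn1, fibronectin. Itgae rose without overlap (log2 fold change 1.92, adjusted p = 0.0735 from edgeR). Fn1 measured 366, 380 and 51.2 CPM in WT and 59.7, 92.1 and 94.0 CPM in Nfkb2-/- libraries (log2 fold change -1.70, adjusted p = 0.245 from edgeR). It overlapped through WT replicate 3, its lowest library. The median log2 fold change of the 14 genes was -0.35, with values from -1.70 to 1.92. In WT replicate 3, 8 of the 14 had their lowest value, beside 25.96% of all genes at 2 CPM or more. Id2, a regulator needed for several dendritic cell lineages and the most abundant in CPM, measured 928, 731 and 1274 CPM in WT and 543, 858 and 859 CPM in Nfkb2-/- libraries (log2 fold change -0.38, adjusted p = 0.530 from edgeR), with overlap between the genotypes.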

How the data were processed

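RNA-seq was performed on BMDCs in 3 WT and 3 Nfkb2-/- libraries, grouped by the sample labels. The authors deposited whole-number counts of reads per Ensembl gene, without normalization. The submitters' processing notes name HISAT2 and GRCm38 (mm10). The counting tool and strand setting were not given in the sources used here. A table that joins the libraries was left out, since its values are identical.

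Genes with a name in GENCODE M21 and at least 50 counts over the 6 libraries were kept, 21849 in all. Unnamed IDs took 1.01% to 1.75% of the counts per library and entered neither library sizes nor tests. Counts were scaled with TMM and the genotypes compared with glmQLFit and glmQLFTest in edgeR 4.0.16 (R 4.3.3), with Benjamini-Hochberg adjustment over all genes tested. A call required a fold change above 1.2 and an adjusted p below 0.05. Standard errors (SE) of log2 fold changes were obtained by dividing their size by the root of F. Two-sided exact permutation tests used log2 CPM. DESeq2 1.42.0, limma 3.58.1 (voom), RLE size factors, total counts, 3 other filters, a replicate block and leaving out each library were alternatives. The fits were tested on simulated data. Replicate numbers were not taken to pair libraries. The study describes the libraries as independent biological replicates, and the labels do not say which animals they came from. Replicates differed by far more than counting noise, with chi-square values of 10.5 to 162 per degree of freedom.

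The members and gene lists were chosen with earlier results of these data known. All 10 members were named. Of each pathway list the genes called and the most abundant gene were named, of each marker list the most abundant gene, and Nfkb2 as the targeted gene. Lrrc32, Acvr1c, Tgif1, Itgae, Fn1, Gdf11, Fst, Itgax, Ciita, Cd86, Zbtb46, Ccr7, Cpa3 and Gata2 were named after their values were seen. Motifs were searched on both strands of RefSeq windows.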

Additional observations from a re-analysis of the deposited data

How the results depend on the processing

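No member was called by edgeR under RLE size factors, the other filters, the replicate block or with any library left out (0 to 0), nor by limma voom. With total counts 1 member was called and with DESeq2 1, Skil in both. The direction of 7 members was the same in all 14 alternatives. The exceptions were Tgfb3, at -0.44 with limma voom, -0.083 without a filter, -0.20 with the replicate block and from -0.79 (without Nfkb2-/- replicate 1) to 0.50 with a library left out, Smad7, from -0.31 to 0.078 (without WT replicate 3), and Tgfbi, from -0.34 (without WT replicate 3) to 0.40. The cause was not tested.

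The count of other pathway genes called, 3, was 12 with DESeq2, 5 with limma voom, 13 without a filter, 5 with at least 10 counts in every library and 0 to 10 with a library left out. Over all genes the count of 248 became 1890 with DESeq2, 488 with limma voom, 1625 without a filter, 397 with filterByExpr, 459 with at least 10 counts in every library and 0 to 1248 with a library left out. The count was 0 on omission of WT replicate 1 or of any Nfkb2-/- replicate, and 1248 on omission of WT replicate 2. Same-numbered libraries deviated from their group means with correlations of 0.26, 0.15 and 0.02, so the numbers were not taken as pairing the libraries. With the replicate block 0 members, 0 pathway genes and 0 genes in all were called.

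Total counts in place of TMM moved the median log2 fold change of all genes from 0.08 to 0.17, and leaving out the filter moved it to 0.60. At the depth of these libraries 3 counts correspond to 0.0539 to 0.1005 CPM, below the level of each member in every library. The spread among 3 libraries limits all members.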
